A study of Homo sapiens with 12 samples.

Results

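Chaperones are the proteins that help others to fold, and the members described here are 40 genes for cytosolic and mitochondrial chaperones, their partner proteins and the heat shock transcription factors. The rule listed them by gene symbol and used no measured value, and all 40 were found among the 60707 genes of the deposited count table. By role they comprise 2 regulators, 7 genes known for induction by heat, 3 other cytosolic HSP70 family genes, 3 other J proteins, 3 other BAG factors, 2 cytosolic HSP90 genes, 8 HSP90 co-chaperones, 5 mitochondrial chaperones and 7 subunits of the ring-shaped chaperonin TRiC. RNA was sequenced from the Burkitt lymphoma line Raji, engineered with an auxin-inducible degron for SMARCA4, an ATPase subunit of SWI/SNF chromatin remodellers. Every library bears the genotype label Smarca4+/+ and the time 24 h. The 4 groups, of 3 libraries each, were GFP-high cells with DMSO, GFP-high cells with FX1, GFP-low cells with DMSO and GFP-low cells with FX1, where FX1 is an inhibitor of BCL6, a transcriptional repressor, and DMSO is the vehicle. How the GFP gate tracks SMARCA4 protein, whether auxin was given to all groups or whether the cells are 1 clone is not given in the labels. A degron acts on protein, so SMARCA4 RNA does not check the gates.

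HSP70 proteins bind exposed hydrophobic stretches of unfolded proteins, J proteins deliver clients to them and stimulate their ATPase, and BAG and HSP110 proteins exchange the nucleotide so that the client is released. HSP90 acts later on near-native clients such as kinases and steroid receptors, with co-chaperones that set its cycle, while TRiC encloses actin, tubulin and other proteins in its cavity, and a separate HSP60, HSP10 and HSP70 system works in the mitochondrial matrix. When unfolded protein accumulates, HSF1 is released from chaperones, forms trimers and binds heat shock elements in the promoters of inducible chaperone genes.

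The libraries held 20454028 to 42556661 counts assigned to genes, and genes of the mitochondrial genome took 4.23% to 7.91% of them. Levels are CPM, counts scaled to library size with TMM factors, and changes are log2 fold changes ± standard error (SE) from edgeR's quasi-likelihood test over 17859 genes, called at a Benjamini-Hochberg adjusted p under 0.05. Separate cultures are not named for the 3 libraries within each group, so p-values reflect library-to-library spread that may be technical, and this spread was small (common biological coefficient of variation 1.67%). Very small changes therefore passed. The 6 B-cell markers were all present, with summed levels of 2650 to 2667 CPM in GFP-high DMSO, 2209 to 2228 in GFP-high FX1, 2357 to 2374 in GFP-low DMSO and 1788 to 1794 in GFP-low FX1. Markers of T and NK cells summed to at most 7.54 CPM, of myeloid cells to at most 6.44, and of epithelial and stromal cells to at most 17.3, the last 2 sums being highest in GFP-low FX1. The part of these markers in the results was not tested.

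The members together took 1.77% to 1.78% of all counts in the GFP-high DMSO libraries, 2.02% to 2.03% with FX1, 1.54% to 1.56% in GFP-low DMSO and 1.70% to 1.71% in GFP-low FX1. The groups did not overlap, and the share was higher with FX1 in both gates and lower in GFP-low cells under both treatments. In bulk RNA, a change of level in each cell and a change in which cells were present cannot be told apart. Per kilobase of exonic length, the highest mean levels in GFP-high DMSO were those of HSP90AB1 at 826 CPM, HSPA8 at 614, HSP90AA1 at 470, HSPD1 at 283 and PTGES3 at 216. HSPA1B stood at 15.8 CPM per kilobase there and HSPA1A at 0.514, so by these counts the inducible HSP70 genes were minor next to the constitutive HSPA8. Of 50-base stretches, 72.6% of HSPA1A and 73.5% of HSPA1B occur in other genes, against 15.4% of HSPA8. How reads that map to more than 1 gene were counted is not given, so this comparison of levels is uncertain. HSPB1, the small heat shock protein HSP27, had 6 counts over all 12 libraries, failed the filter on low counts and is not tested. The other 39 members passed.

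FX1 raised most members. In GFP-high cells, 25 of the 39 tested members rose and 13 fell, where 33.8% of all genes tested rose, 34.6% fell and 68.4% were called in either direction. In GFP-low cells, 22 rose and 11 fell, against 33.7% and 34.3% of all genes (68.0% called). The members' median change was 0.25 in GFP-high and 0.16 in GFP-low, beside -0.01 over all genes in each. The median change was 1.00 and 0.85 for the 6 tested inducible genes, 0.31 and 0.38 for the 8 HSP90 co-chaperones, -0.16 and 0.04 for the 5 mitochondrial genes and -0.08 and 0.00 for the 7 TRiC subunits, in GFP-high and GFP-low in that order. Across gates, 22 members rose in both and 10 fell in both, 0 moved in opposite directions and 7 were called in 1 gate. Of all genes tested, 26.2% rose in both gates, 26.5% fell in both and 3.22% were called in opposite directions. When a trend on transcript GC content and length was removed from each library, the counts became 27 higher and 7 lower in GFP-high and 25 and 7 in GFP-low. Of the 17557 genes tested in that setting, 6514 rose and 5565 fell in GFP-high, and 6335 rose and 5239 fell in GFP-low cells. The all-gene medians had moved up as well, to 0.04 and 0.05.

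**Figure D1:**
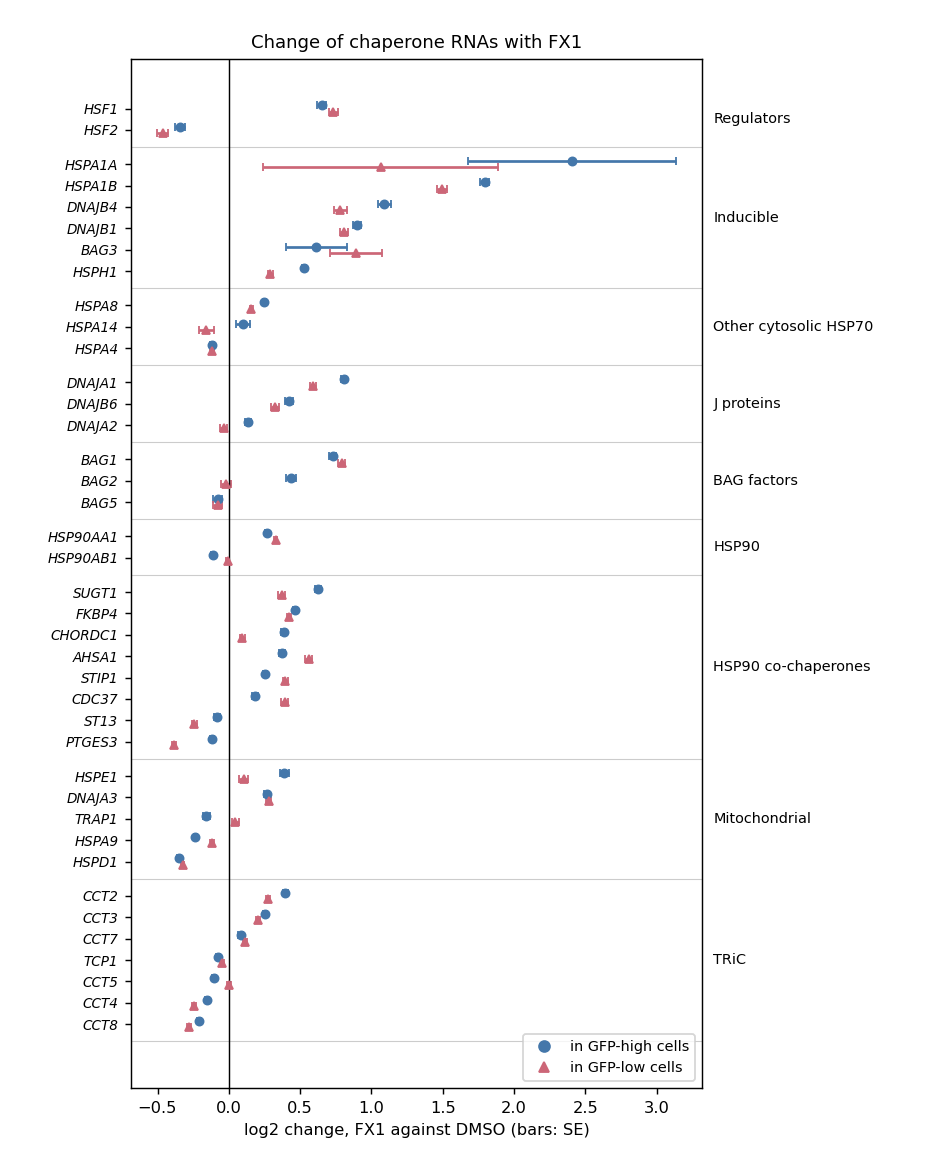
The horizontal axis gives the log2 change of each tested member with FX1 against DMSO, with bars for the SE, circles for GFP-high and triangles for GFP-low cells, grouped by role. HSPA1A at 2.41 with its wide bar, HSPA1B at 1.79 and DNAJB4 at 1.09 lie furthest to the right for GFP-high cells, while TRiC and mitochondrial genes lie on both sides of 0.

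HSF1, the main activator of the heat shock response, measured 58.2, 59.1 and 65.1 CPM in GFP-high DMSO, 96.0, 96.4 and 93.5 in GFP-high FX1, 66.7, 70.5 and 69.3 in GFP-low DMSO and 113, 120 and 111 in GFP-low FX1. All 6 FX1 libraries lay above all 6 DMSO libraries, and HSF1 rose by 0.65 ± 0.032 in GFP-high (adjusted p = 3.8e-51) and 0.73 ± 0.031 in GFP-low cells (adjusted p = 1.7e-62). HSF1 has the most GC-rich transcript of the members (64.7% GC), and without the GC and length trend the rises were 0.34 and 0.23. HSF2, its paralog with roles in development and in tuning the stress response, fell by 0.34 ± 0.037 and by 0.46 ± 0.039, from 64.4 ± 0.47 to 50.7 ± 0.76 CPM (mean ± SD, n = 3) in GFP-high and from 56.4 ± 1.6 to 40.8 ± 1.1 in GFP-low cells. The falls of HSF2 were -0.19 and -0.20 without the trend.

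HSPA1A and HSPA1B encode nearly the same stress-inducible HSP70 protein and lie side by side on chromosome 6 of hg38 (ENSG00000204389.10, 31815543 to 31817946, and ENSG00000204388.7, 31827738 to 31830254, both on the plus strand). Of the 50-base stretches of HSPA1A transcripts, 72.6% also occur in HSPA1B, so the split of reads between the pair and the total level of the pair are uncertain. Their promoters are shown because they are near copies too: the 140 bases before each RefSeq start site (GRCh38.p14), aligned with a shift of 1 base, were identical at 131 of 139 positions. Capitals mark an inverted pair of heat shock units, GAANNTTC, which is its own reverse complement when N is any base and occurs in 6.87% of all 27305 RefSeq promoters of 300 bases. It was found in 10 of the 36 members with a promoter in the table. The other pair, TTCNNGAA, occurs in 7.84% of all promoters and in 6 of the 36 members.
HSPA1A chr6:31815403-31815542 plus strand: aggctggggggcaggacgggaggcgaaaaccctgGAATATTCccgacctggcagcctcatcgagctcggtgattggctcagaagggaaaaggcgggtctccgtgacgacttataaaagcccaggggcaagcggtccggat
HSPA1B chr6:31827598-31827737 plus strand: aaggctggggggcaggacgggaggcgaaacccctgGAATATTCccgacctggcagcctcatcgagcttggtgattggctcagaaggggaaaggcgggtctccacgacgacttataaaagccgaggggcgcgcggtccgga

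HSPA1B had most of the counts of the pair, at 38.6, 40.9 and 39.8 CPM in GFP-high DMSO and 141, 131 and 143 with FX1, and at 28.8, 32.4 and 32.9 CPM in GFP-low DMSO and 90.6, 87.5 and 86.3 with FX1. Both FX1 groups lay above both DMSO groups without overlap. It rose by 1.79 ± 0.034 (3.46-fold) in GFP-high and by 1.49 ± 0.037 (2.82-fold) in GFP-low cells (adjusted p = 5.4e-123 and 3.1e-100). HSPA1A was sparse, at 1.52, 1.13 and 1.06 CPM in GFP-high DMSO and 3.56, 12.9 and 3.53 with FX1, and at 2.48, 0.603 and 0.485 in GFP-low DMSO and 2.64, 2.32 and 2.48 with FX1. GFP-high FX1 replicate 2 held by far the highest value, and the GFP-low groups overlapped. HSPA1A was called higher in GFP-high (2.41 ± 0.73, adjusted p = 0.017), and without GFP-high FX1 replicate 2 it stood at 1.54 and was still called (adjusted p = 0.026). It was not called without GFP-high DMSO replicate 2 (2.33, adjusted p = 0.059) or in a fit of the 2 GFP-high groups alone (2.40, adjusted p = 0.069), nor in GFP-low cells (1.07 ± 0.82, adjusted p = 0.29). The split between the copies was uneven in the same libraries: HSPA1A counts were 0.0985 times those of HSPA1B in GFP-high FX1 replicate 2 and 0.0859 times in GFP-low DMSO replicate 1, while the other 10 libraries lay between 0.0147 and 0.0393.

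Summed to 1 row, an alternative chosen after the data were seen, the pair was even within groups. The sums were 40.1, 42.1 and 40.9 CPM in GFP-high DMSO, 144, 144 and 146 in GFP-high FX1, 31.3, 33.0 and 33.4 in GFP-low DMSO and 93.3, 89.8 and 88.7 in GFP-low FX1. The sum rose 3.52-fold (log2 1.82 ± 0.033) in GFP-high and 2.79-fold (1.48 ± 0.036) in GFP-low cells. Exons of HSPA1B overlap those of ENSG00000285565 on the same strand over 36.6% of their bases, and that gene held 8 counts in all. Those few counts do not show how reads over the shared bases were counted.

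The other inducible genes rose in both gates by smaller amounts. DNAJB1, the J protein HSP40 that works with inducible HSP70, measured 75.2, 72.6 and 74.0 CPM in GFP-high DMSO and 137, 140 and 138 with FX1, and 65.6, 66.2 and 64.5 in GFP-low DMSO and 114, 114 and 117 with FX1. The FX1 and DMSO groups of DNAJB1 were far apart, with rises of 0.90 ± 0.028 and 0.81 ± 0.029. DNAJB4, a related J protein, rose by 1.09 ± 0.045 in GFP-high, from 28.7 ± 1.8 to 61.3 ± 0.70 CPM, and by 0.78 ± 0.049 in GFP-low cells, from 24.0 ± 1.7 to 41.1 ± 1.4, the latter rise being 1.21 without the GC and length trend. HSPH1, the HSP110 nucleotide exchange factor that helps HSP70 to pull apart aggregates, measured 458, 448 and 461 CPM in GFP-high DMSO and 655, 661 and 650 with FX1, and 372, 366 and 365 in GFP-low DMSO and 454, 451 and 444 with FX1. GFP-low FX1 therefore overlapped GFP-high DMSO for HSPH1, while each FX1 group lay above the DMSO group of its own gate, with rises of 0.53 ± 0.014 and 0.29 ± 0.015, the second being 0.49 without the trend. BAG3, which links HSP70 to autophagy, stood low at 1.38, 1.06 and 1.23 CPM in GFP-high DMSO and 1.96, 2.02 and 1.60 with FX1, and at 1.83, 1.78 and 1.82 in GFP-low DMSO and 2.93, 3.77 and 3.49 with FX1. BAG3 rose by 0.61 ± 0.21 (adjusted p = 0.0079) and 0.89 ± 0.18 (adjusted p = 4.2e-06), and the first of these was not called without GFP-high DMSO replicate 2 (0.51, adjusted p = 0.063). Of all genes tested, 17.0% were called with at least a 2-fold change in GFP-high and 15.4% in GFP-low. In GFP-high cells the members past that size were HSPA1A, HSPA1B and DNAJB4, and in GFP-low cells HSPA1B.

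**Figure D2:**
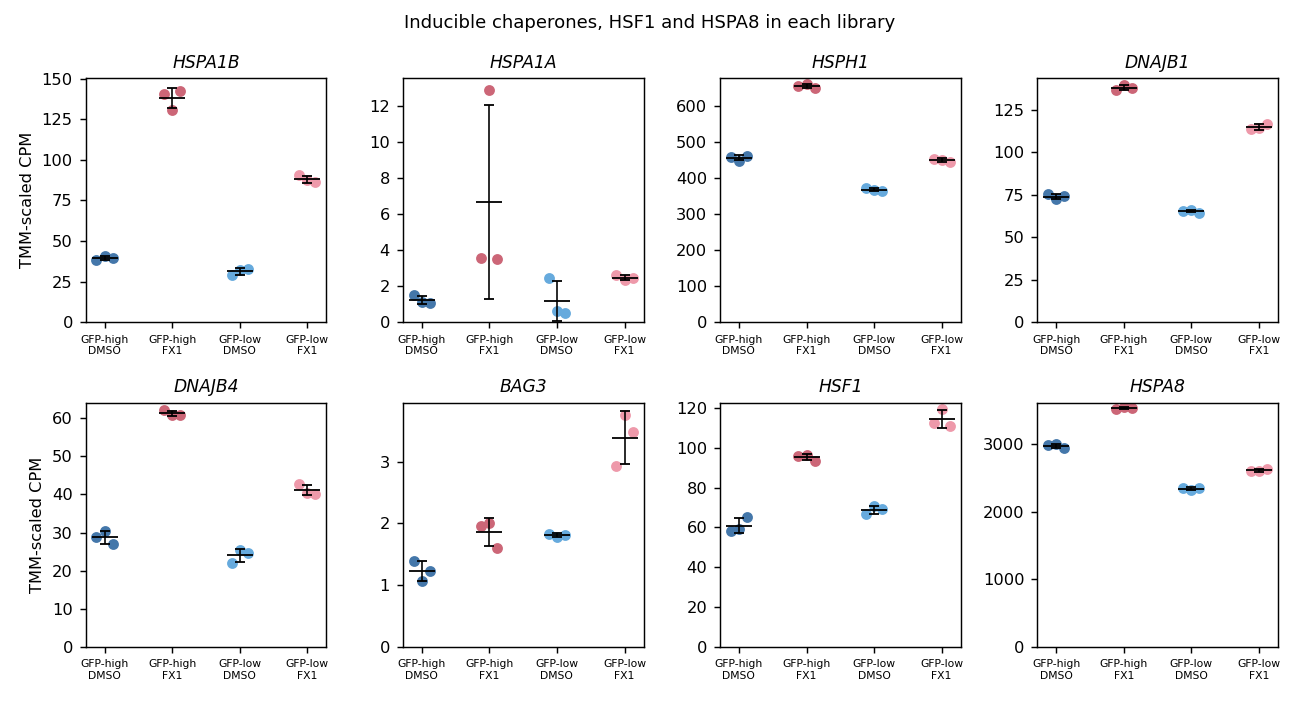
Each point is the TMM-scaled CPM of 1 library in the 4 groups, with the mean and SD as bars and an axis from 0. HSPA1B, DNAJB1, DNAJB4 and HSF1 are higher in every FX1 library than in any DMSO library, while HSPA1A has single high libraries at 12.9 and 2.48 CPM.

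Among the other HSP70 family genes the response was small. HSPA8, the constitutive cytosolic HSP70 (ENSG00000109971.14, chromosome 11, 123057489 to 123063230, minus strand), measured 2989, 3005 and 2940 CPM in GFP-high DMSO and 3529, 3555 and 3540 with FX1, and 2352, 2322 and 2354 in GFP-low DMSO and 2609, 2598 and 2632 with FX1. Its groups did not overlap, and it rose by 0.25 ± 0.010 and 0.16 ± 0.011, or 1.19-fold and 1.11-fold. The ratio of HSPA1A plus HSPA1B counts to HSPA8 counts, which does not depend on library scaling, was 0.0134, 0.0140 and 0.0139 in GFP-high DMSO and 0.0133, 0.0142 and 0.0142 in GFP-low DMSO. It was 0.0409, 0.0404 and 0.0413 in GFP-high FX1 and 0.0357, 0.0346 and 0.0337 in GFP-low FX1, so that the DMSO groups overlapped each other and lay below both FX1 groups. The size of this ratio is uncertain, since how reads shared between genes were counted is not given. HSPA4, an HSP110 family member, fell by 0.12 in both gates (SE 0.014 and 0.015), and without the GC and length trend it stood at -0.04 and 0.00. HSPA14, a ribosome-linked HSP70 relative, was not called in GFP-high (0.10 ± 0.050, adjusted p = 0.069), though it was called higher without GFP-high DMSO replicate 3 (0.14), GFP-high FX1 replicate 1 (0.12) or GFP-high FX1 replicate 3 (0.14) and without the trend (0.26), and it fell by 0.16 ± 0.053 in GFP-low cells, a call lost without GFP-low FX1 replicate 3 (-0.11, adjusted p = 0.084). It stood at 0.07 there without the trend. HSPA14 exons share 12.7% of their bases with MSANTD7 on the same strand, so its counts are uncertain.

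All 3 constitutive J proteins rose in GFP-high cells. DNAJA1, the main constitutive cytosolic partner of HSPA8, measured 231, 232 and 226 CPM in GFP-high DMSO and 395, 406 and 403 with FX1, and 180, 177 and 174 in GFP-low DMSO and 269, 264 and 265 with FX1. No 2 groups of DNAJA1 overlapped, and the rises were 0.81 ± 0.017 (1.75-fold) and 0.59 ± 0.018 (1.51-fold). DNAJB6, known for suppressing polyglutamine aggregation, rose by 0.42 ± 0.028 and 0.33 ± 0.028, the second falling to 0.05 (adjusted p = 0.11) without the GC and length trend. DNAJA2, which works in refolding, rose by 0.13 ± 0.023 in GFP-high and was not called in GFP-low cells (-0.04 ± 0.024, adjusted p = 0.18). It was called lower there without GFP-low FX1 replicate 2 (-0.06) and higher, at 0.17, without the trend.

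BAG1, a nucleotide exchange factor that links HSP70 to the proteasome, measured 88.8, 85.3 and 90.2 CPM in GFP-high DMSO and 146, 144 and 146 with FX1, and 85.3, 81.7 and 81.0 in GFP-low DMSO and 141, 144 and 144 with FX1. All 6 FX1 libraries of BAG1 lay above all 6 DMSO libraries, with rises of 0.73 ± 0.027 and 0.79 ± 0.027. BAG2, which inhibits the ubiquitin ligase CHIP, measured 60.7, 56.5 and 57.4 CPM in GFP-high DMSO and 75.9, 80.3 and 79.5 with FX1, and 54.8, 58.3 and 57.5 in GFP-low DMSO and 55.4, 57.7 and 55.4 with FX1. Only the GFP-high FX1 libraries of BAG2 stood apart, and it rose by 0.43 ± 0.035 in GFP-high and was not called in GFP-low cells (-0.02 ± 0.036, adjusted p = 0.64). Without the GC and length trend its GFP-low value was 0.24 and called. BAG2 exons overlap genes of the opposite strand over 44.2% of their bases, and the strand setting of the counts is not given in the sources used here. BAG5 fell by 0.08 in both gates. The GFP-high call was lost without GFP-high DMSO replicate 3 or GFP-high FX1 replicate 1 or 2 (-0.07 to -0.05), and the GFP-low call without GFP-low DMSO replicate 2 or GFP-low FX1 replicate 1 or 2 (-0.07 to -0.04).

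Heat shock elements of 3 units, TTCNNGAA directly followed by NNTTC and so holding both pairs named above, were searched on both strands and found in the RefSeq promoters (250 bases before to 50 bases from the start site on) of CHORDC1, HSPA8, DNAJA1 and DNAJB6. These were 4 of the 36 members with a promoter in the table, beside 133 of 27305 promoters in all (0.487%). The 3-unit form was found in 0 of the 7 inducible genes and 0 of the 2 HSP90 genes, while the pair GAANNTTC was found in 3 of those 7. Only 1 promoter a symbol was searched, so elements at other start sites or outside the window would be missed. Every fixed letter had to match, so elements with a mismatch would be missed too, and an absent match does not show that a promoter lacks an element. The matched stretches are shown because they belong to genes that FX1 raised by unlike amounts, in GFP-high cells from 0.25 for HSPA8 to 0.81 for DNAJA1 and in GFP-low cells from 0.09 for CHORDC1 to 0.59 for DNAJA1. Capitals mark the matched units, the build is GRCh38.p14 and the 3 matches of CHORDC1 overlap in 1 run. A match describes letters in this window and is no measurement of binding.
HSPA8 chr11:123062162-123062206 minus strand: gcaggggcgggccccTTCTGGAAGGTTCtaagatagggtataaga
HSPA8 chr11:123062337-123062381 minus strand: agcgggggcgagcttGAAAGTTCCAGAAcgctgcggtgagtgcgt
CHORDC1 chr11:90223075-90223119 minus strand: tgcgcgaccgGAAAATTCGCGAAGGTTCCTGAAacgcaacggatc
DNAJB6 chr7:157336859-157336903 plus strand: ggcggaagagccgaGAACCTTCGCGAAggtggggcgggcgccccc
DNAJA1 chr9:33025276-33025288 plus strand, 4 to 16 bases from the start site: GAACTTTCCAGAA

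The HSP90 pair diverged. HSP90AA1, the stress-responsive cytosolic HSP90 (ENSG00000080824.19, chromosome 14, 102080742 to 102139699, minus strand), measured 2424, 2378 and 2385 CPM in GFP-high DMSO and 2876, 2865 and 2906 with FX1, and 1611, 1616 and 1663 in GFP-low DMSO and 2045, 2057 and 2039 with FX1. No 2 groups overlapped, and HSP90AA1 rose by 0.27 ± 0.011 and 0.33 ± 0.011. HSP90AB1, the constitutive form (ENSG00000096384.20, chromosome 6, 44246166 to 44253888, plus strand), measured 2435, 2497 and 2450 CPM in GFP-high DMSO, 2293, 2253 and 2276 with FX1, 1986, 1960 and 2029 in GFP-low DMSO and 2000, 1967 and 1978 with FX1. The GFP-low groups of HSP90AB1 overlapped, and it fell by 0.11 ± 0.011 in GFP-high cells (-0.05 without the GC and length trend) and was not called in GFP-low cells (-0.01 ± 0.011, adjusted p = 0.58). Of 50-base stretches, 17.5% of HSP90AA1 and 18.8% of HSP90AB1 occur in other genes, mostly pseudogenes of each.

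Within libraries the ratio of HSP90AA1 to HSP90AB1 counts was 0.995, 0.952 and 0.973 in GFP-high DMSO, 1.25, 1.27 and 1.28 in GFP-high FX1, 0.811, 0.825 and 0.820 in GFP-low DMSO and 1.02, 1.05 and 1.03 in GFP-low FX1. All 4 groups were separate, and the ratio was higher with FX1 by 0.38 on the log2 scale in GFP-high and by 0.34 in GFP-low cells. With 3 libraries a group, an exact permutation test cannot go below p = 0.10, so none was run. The ratio of raw counts is not a ratio of transcripts, since HSP90AA1 has 5097 exonic bases and HSP90AB1 2980. Per kilobase, HSP90AB1 stayed the more abundant in every group, at 763 against 566 CPM in GFP-high FX1.

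**Figure D3:**
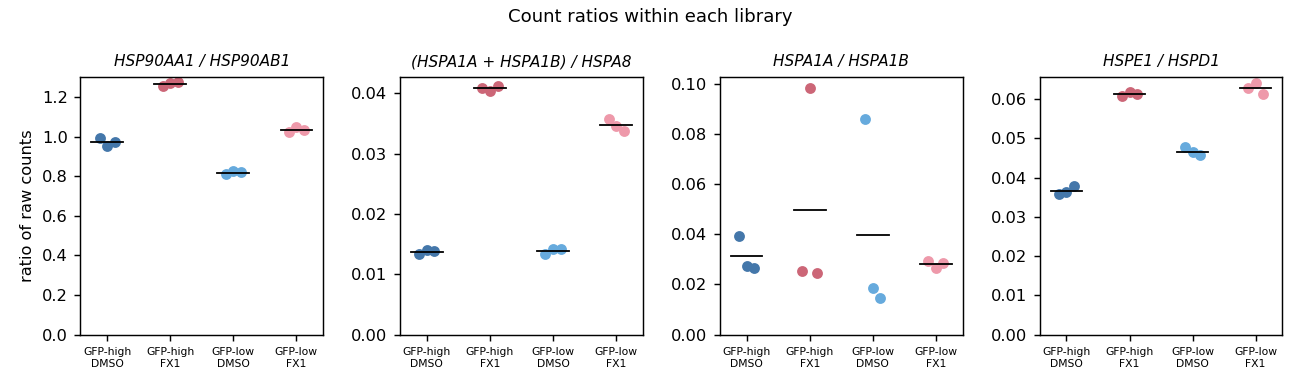
Each point is a ratio of raw counts within 1 library, with a line at the group mean and axes from 0, for HSP90AA1 to HSP90AB1, the summed HSPA1A and HSPA1B to HSPA8, HSPA1A to HSPA1B, and HSPE1 to HSPD1. FX1 libraries lie higher in each gate for the first, the second and the last ratio, while HSPA1A to HSPA1B has high single libraries at 0.0985 and 0.0859.

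Of the 8 HSP90 co-chaperones, 6 rose and 2 fell in both gates. SUGT1, an adaptor of HSP90 for immune receptors and kinetochores, measured 127, 130 and 127 CPM in GFP-high DMSO and 200, 191 and 202 with FX1, and 116, 116 and 116 in GFP-low DMSO and 151, 150 and 148 with FX1. SUGT1 groups did not overlap, and it had the largest rise of the class in GFP-high cells, 0.63 ± 0.023, with 0.37 ± 0.024 in GFP-low cells, or 0.61 there without the trend. AHSA1, the activator of the HSP90 ATPase, had the largest rise in GFP-low cells, 0.56 ± 0.023, and rose by 0.37 ± 0.022 in GFP-high. FKBP4, an immunophilin of steroid receptor complexes, rose by 0.47 ± 0.016 and 0.42 ± 0.016.

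STIP1, the HOP protein that joins HSP70 to HSP90, rose by 0.25 ± 0.017 and 0.40 ± 0.018, the second being 0.22 without the trend. CDC37, which loads kinases, rose by 0.18 ± 0.022 and 0.39 ± 0.022, values that became 0.05 and 0.15 without the GC and length trend. CHORDC1, a zinc-binding HSP90 partner whose promoter holds the run of heat shock units above, rose by 0.38 ± 0.018 in GFP-high and by 0.09 ± 0.019 in GFP-low cells, the second becoming 0.42 without the trend. Those that fell were PTGES3, the p23 protein that holds HSP90 closed (-0.12 ± 0.013 and -0.39 ± 0.014), and ST13, the HSP70-interacting protein HIP (-0.08 ± 0.018 and -0.24 ± 0.019). In GFP-high cells both were at or above 0 without the trend, at 0.01 for PTGES3 and 0.03 for ST13, and neither was called. In GFP-low cells they stood at -0.22 and -0.06. Of ST13, 30.7% of 50-base stretches occur in other genes, among them its pseudogenes.

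The mitochondrial chaperones did not move as 1 class. HSPD1, the HSP60 chaperonin, measured 2184, 2153 and 2149 CPM in GFP-high DMSO and 1698, 1687 and 1703 with FX1, and 1565, 1578 and 1585 in GFP-low DMSO and 1268, 1244 and 1264 with FX1. No 2 groups overlapped, and it fell by 0.35 ± 0.011 and by 0.32 ± 0.011, and stood at -0.22 and -0.18 without the GC and length trend. HSPE1, its HSP10 lid, measured 78.2, 78.4 and 81.4 CPM in GFP-high DMSO and 103, 104 and 104 with FX1, and 74.7, 73.4 and 72.4 in GFP-low DMSO and 79.6, 79.9 and 77.5 with FX1. HSPE1 rose by 0.39 ± 0.030 in GFP-high and by 0.11 ± 0.031 in GFP-low cells (adjusted p = 0.0014), where GFP-low FX1 overlapped GFP-high DMSO. The GFP-low value was 0.06 and not called (adjusted p = 0.06) when mitochondrial and very abundant genes were left out before scaling, and 0.23 without the trend.

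HSPD1 and HSPE1 lie head to head on chromosome 2, with RefSeq start sites at 197500274 and 197500379. The 104 bases between them serve as a shared promoter region and are printed whole because the RNAs on the 2 sides moved in opposite directions with FX1. None of the heat shock element forms searched was found in the promoter windows of either gene.
Between the HSPD1 and HSPE1 start sites, chr2:197500275-197500378, read in the direction of HSPE1: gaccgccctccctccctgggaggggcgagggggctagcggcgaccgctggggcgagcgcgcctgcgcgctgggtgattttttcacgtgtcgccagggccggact
The ratio of HSPE1 to HSPD1 counts was 0.0358, 0.0364 and 0.0379 in GFP-high DMSO, 0.0607, 0.0618 and 0.0612 in GFP-high FX1, 0.0477, 0.0465 and 0.0457 in GFP-low DMSO and 0.0627, 0.0642 and 0.0613 in GFP-low FX1. Both FX1 groups overlapped each other and lay above both DMSO groups. HSPE1 shares 10.5% of its exonic bases with the readthrough gene HSPE1-MOB4, which held 25 counts in all, and summing them, an alternative chosen after the data were seen, left the changes at 0.39 and 0.11. With so few counts the sum could hardly differ, so it does not show how reads over the shared bases were counted. The annotated gene bodies of HSPD1 and HSPE1 overlap on opposite strands. Of 50-base stretches, 24.8% of HSPD1 and 27.2% of HSPE1 occur in other genes, so the counts of both are uncertain to that extent.

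HSPA9, the mitochondrial HSP70 mortalin, measured 827, 812 and 814 CPM in GFP-high DMSO and 693, 696 and 696 with FX1, and 645, 627 and 640 in GFP-low DMSO and 586, 585 and 594 with FX1. No 2 of its groups overlapped, and it fell by 0.23 ± 0.013 and by 0.12 ± 0.013, the second being -0.03 and not called (adjusted p = 0.07) without the GC and length trend. TRAP1, the mitochondrial HSP90, measured 144, 146 and 140 CPM in GFP-high DMSO and 130, 127 and 129 with FX1, and 129, 131 and 128 in GFP-low DMSO and 133, 132 and 134 with FX1. Its GFP-high DMSO libraries were the highest of the 12, and it fell by 0.16 ± 0.024 in GFP-high and was not called in GFP-low cells (0.04 ± 0.024, adjusted p = 0.10). That GFP-low value was called higher without GFP-low DMSO replicate 2 (0.06, adjusted p = 0.047) and was -0.13 and called lower without the trend. TRAP1 exons overlap genes of the opposite strand over 28.5% of their bases, so with the strand setting not given its counts are uncertain. DNAJA3, the mitochondrial J protein, rose by 0.27 ± 0.019 and 0.28 ± 0.019.

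The TRiC subunits, which act in equal numbers in 1 complex, split. CCT2 had the largest rise, with 299, 296 and 305 CPM in GFP-high DMSO and 400, 393 and 392 with FX1, and 259, 259 and 253 in GFP-low DMSO and 313, 311 and 309 with FX1. CCT2 groups did not overlap, and it rose by 0.40 ± 0.016 and 0.27 ± 0.017. CCT8 had the largest fall, with 495, 496 and 497 CPM in GFP-high DMSO and 430, 427 and 429 with FX1, and 407, 404 and 411 in GFP-low DMSO and 336, 338 and 332 with FX1. CCT8 groups did not overlap either, and it fell by 0.21 ± 0.015 and by 0.28 ± 0.015. CCT3 and CCT7 rose in both gates, CCT4 and TCP1 fell in both, and CCT5 fell by 0.11 in GFP-high and was not called in GFP-low cells (0.00 ± 0.015, adjusted p = 0.97). CCT6A, a TRiC subunit outside the members, rose by 0.11 and 0.04. Exons of CCT5 and CCT4 overlap genes of the opposite strand over 30.8% and 16.9% of their bases, so their counts are uncertain in the same way.

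In all, 3 TRiC subunits rose and 4 fell in GFP-high cells, and 3 rose and 3 fell in GFP-low cells. This split depended on the trend with GC content and length: without it, 4 rose and 1 fell in GFP-high and 5 rose and 2 fell in GFP-low cells, with medians of 0.06 and 0.10. The medians over all 17557 genes were then 0.04 and 0.05, so the TRiC medians lay near those of all genes. Of these genes 6514 rose and 5565 fell in GFP-high, and 6335 and 5239 in GFP-low cells. The fall of CCT8 was then -0.05 and -0.06, TCP1 turned to 0.06 and 0.11, CCT4 stood at -0.03 (not called) and -0.12, and CCT5 in GFP-low cells was called higher at 0.08. The TCP1 fall of 0.05 in GFP-low cells was also not called without GFP-low FX1 replicate 2 (-0.03, adjusted p = 0.064). Removing the trend kept 6 of 6 tested inducible genes higher in GFP-high and 5 of 6 in GFP-low cells, with medians of 1.04 and 0.74.

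GFP-low cells held less of most chaperone RNAs than GFP-high cells. Under DMSO, 33 of the 39 tested members were lower and 2 higher, where 24.4% of all genes tested were called lower, 21.7% higher and 46.1% in either direction. Under FX1, 32 were lower and 2 higher, against 26.7%, 30.2% and 56.9%. The members' median was -0.25 and -0.33, beside 0.03 and 0.08 over all genes. Under both treatments 30 members were lower and 2 were higher, and none was called in opposite directions. These comparisons use the same libraries as those of FX1, so they are not independent of them.

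Of the members lower in GFP-low cells under DMSO, HSP90AA1 differed most, at -0.56 ± 0.011 (0.68-fold), followed by HSPD1 at -0.46 ± 0.011. Under FX1 HSP90AA1 was lower by 0.49 ± 0.011 on the log2 scale and HSPD1 by 0.43 ± 0.011. HSP90AB1 differed less, at -0.31 ± 0.011 and -0.20 ± 0.011, so that the HSP90AA1 to HSP90AB1 ratio was lower in GFP-low cells by 0.25 and 0.29 on the log2 scale. HSPA8 was lower by 0.35 ± 0.011 and 0.44 ± 0.010, HSPA4 by 0.38 ± 0.015 and 0.38 ± 0.014 and DNAJA1 by 0.38 ± 0.019 and 0.59 ± 0.017. DNAJA2 was lower by 0.30 ± 0.024 and 0.47 ± 0.023, and DNAJB6 was called lower under FX1 alone (-0.03 and -0.12). Without the trend HSPA4 stood at -0.27 and -0.23 and DNAJA1 at -0.24 and -0.38.

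Among inducible genes, HSPA1B was lower by 0.35 ± 0.044 under DMSO and by 0.64 ± 0.029 under FX1, HSPH1 by 0.31 ± 0.015 and 0.54 ± 0.014, DNAJB1 by 0.17 ± 0.032 and 0.27 ± 0.026, and DNAJB4 by 0.26 ± 0.053 and 0.57 ± 0.041. The DNAJB4 value under DMSO was not called without the GC and length trend (-0.12, adjusted p = 0.053), and that under FX1 became -0.10, while HSPH1 stood at -0.18 and -0.31. HSPA1A was called under neither treatment (-0.04 ± 0.98 and -1.38 ± 0.62, adjusted p = 0.98 and 0.09). BAG3 was the exception among them, higher in GFP-low cells by 0.58 ± 0.22 under DMSO (adjusted p = 0.024) and 0.85 ± 0.18 under FX1. Its call under DMSO was lost without GFP-high DMSO replicate 2 (0.47, adjusted p = 0.13), without GFP-low DMSO replicate 1 (0.57, adjusted p = 0.0502) and without the trend (0.47, adjusted p = 0.08). HSF1 was the other higher member, at 0.18 ± 0.035 and 0.27 ± 0.029. Its sign turned without the GC and length trend, to -0.07 (not called) and -0.18 (called). HSF2 was lower by 0.19 ± 0.037 and 0.31 ± 0.039, values that became -0.04 and -0.06 and were not called without the trend.

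All 7 TRiC subunits were lower in GFP-low cells under both treatments, from -0.08 for CCT4 to -0.39 for CCT5 under DMSO and from -0.16 for CCT3 to -0.35 for CCT8 under FX1, except that CCT4 under DMSO stood at 0.01 without the GC and length trend. CCT6A was lower too, by 0.39 and 0.45. All 8 HSP90 co-chaperones were lower under DMSO and 7 under FX1, with CDC37 not called there (0.04 ± 0.021, adjusted p = 0.13). CHORDC1 showed the largest co-chaperone difference under FX1, with 329, 330 and 335 CPM in GFP-high and 208, 215 and 214 in GFP-low libraries (-0.64 ± 0.018), and 255, 251 and 256 against 199, 198 and 199 under DMSO (-0.35 ± 0.019). Without the trend CHORDC1 stood at -0.26 under FX1 and -0.22 under DMSO, and CDC37 was called lower under FX1 at -0.25. The FKBP4 call of -0.06 under DMSO was lost without GFP-low DMSO replicate 2 (-0.03, adjusted p = 0.16).

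Of the mitochondrial genes, HSPA9, HSPD1 and HSPE1 were lower in GFP-low cells under both treatments, TRAP1 under DMSO alone (-0.15 ± 0.025, against 0.05 ± 0.024 under FX1), and DNAJA3 was called in neither (0.00 ± 0.020 and 0.01 ± 0.018). Without the trend, TRAP1 and DNAJA3 were called lower under FX1, at -0.15 and -0.10. Of the BAG factors, BAG5 was lower by 0.33 under both treatments and BAG2 was called under FX1 alone (-0.03 ± 0.037 and -0.48 ± 0.034). BAG1 differed by -0.09 under DMSO, a call lost without GFP-high DMSO replicate 3 or GFP-low DMSO replicate 2, and HSPA14 by -0.16, lost without replicate 3 of either DMSO group.

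**Figure D4:**
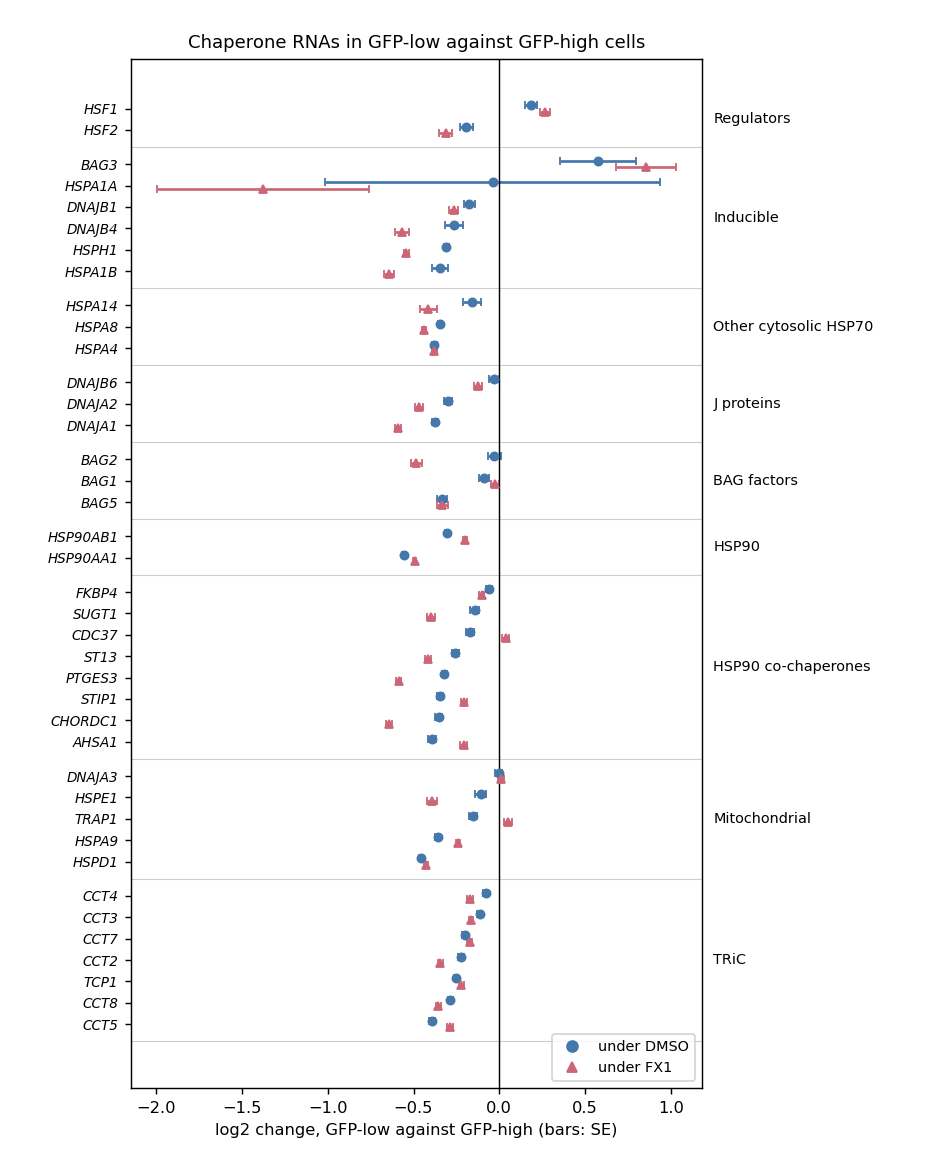
The horizontal axis gives the log2 change of each tested member in GFP-low against GFP-high cells, with bars for the SE, circles under DMSO and triangles under FX1, grouped by role. Nearly all members lie left of 0, with HSP90AA1 at -0.56 under DMSO, while BAG3 and HSF1 lie to the right, HSF1 only while the trend on GC content and length is left in.

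The FX1 response itself differed between gates for 24 of the 39 tested members, 8 with a higher and 16 with a lower change in GFP-low cells. Of all genes tested, 31.3% were called in this contrast, 14.8% higher and 16.5% lower. The members' median difference was -0.07, beside 0.02 over all genes. The balance of directions depended on scaling: with mitochondrial and very abundant genes left out before TMM, 7 members were higher and 21 lower, and over all genes the calls moved from 2636 higher and 2947 lower to 2038 and 3622. The GFP-high DMSO libraries had 7.84% to 7.91% of their counts from the mitochondrial genome, more than any other library, and the part of this in the result was not tested.

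The rise with FX1 was smaller in GFP-low cells for HSPA1B (difference -0.30 ± 0.053, adjusted p = 4.9e-07), HSPH1 (-0.23 ± 0.021, adjusted p = 1.2e-22), DNAJB4 (-0.31 ± 0.067, adjusted p = 5.5e-05) and DNAJA1 (-0.215 ± 0.025). The difference for the summed HSPA1A and HSPA1B was -0.34 ± 0.051. DNAJB1 (-0.09 ± 0.041, adjusted p = 0.075, but called at -0.15 to -0.12 without any 1 GFP-high DMSO library) and BAG3 (0.28 ± 0.29, adjusted p = 0.51) were not called. Without the GC and length trend the DNAJB4 difference was 0.02 and not called, and those of HSPH1 and DNAJA1 were -0.13 and -0.14, while DNAJB1 was called at -0.16. Leaving out any 1 GFP-high DMSO library also added calls for HSF2 (-0.17 to -0.16), DNAJB6 (-0.16 to -0.13), FKBP4 (-0.09 to -0.08) and CCT3 (-0.10 to -0.09). Those fits shifted all genes too, with 1759 to 1863 called higher and 3484 to 3546 lower. The all-gene median moved from 0.024 to between -0.028 and -0.025, so these added calls are not particular to the members. BAG2 showed the largest called difference of the members, -0.45 ± 0.050, or -0.27 without the trend.

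The HSP90 co-chaperones divided here. CHORDC1 (-0.29 ± 0.026), PTGES3 (-0.27 ± 0.019), SUGT1 (-0.26 ± 0.033) and ST13 (-0.16 ± 0.026) had lower changes in GFP-low cells, and CDC37 (0.21 ± 0.031), AHSA1 (0.19 ± 0.032) and STIP1 (0.14 ± 0.025) higher ones. Without the trend, CHORDC1 (-0.03), SUGT1 (-0.08) and STIP1 (0.04) were no longer called. For HSP90AB1 the difference was 0.11 ± 0.016, and for HSP90AA1 0.06 ± 0.015, a call that was lost without any 1 of the 3 GFP-high DMSO libraries (0.01 to 0.02) and in the scaling without abundant genes (0.02). The all-gene median was also lower in these settings, at -0.028 to -0.025 and at -0.019. Among mitochondrial genes HSPE1 (-0.28 ± 0.043) was lower, and TRAP1 (0.20 ± 0.034) and HSPA9 (0.12 ± 0.019) were higher. TRiC differences were small, from -0.12 for CCT2 to 0.11 for CCT5, and the CCT5 call was lost without GFP-high DMSO replicate 2 (0.05, adjusted p = 0.062).

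A wider list of 89 other genes of the same systems was measured, of which 74 passed the filter on low counts. With FX1, 38 rose and 19 fell in GFP-high, and 40 rose and 25 fell in GFP-low cells, with medians of 0.10 and 0.15, where 33.8% and 34.6% of all genes tested did so in GFP-high and 33.7% and 34.3% in GFP-low cells. In GFP-low against GFP-high cells, 16 were higher and 29 lower under DMSO (21.7% and 24.4% of all genes), and 24 and 34 under FX1 (30.2% and 26.7%). The FX1 change differed between gates for 31, with 15 higher and 16 lower (14.8% and 16.5% of all genes). The list's lowest p-values with FX1 were those of SQSTM1, the autophagy receptor p62, at 2.89 ± 0.018 in both gates, and of LONP1, a mitochondrial matrix protease, at -0.69 ± 0.022 and -0.62 ± 0.021.

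SQSTM1 measured 87.7, 85.4 and 93.6 CPM in GFP-high DMSO and 657, 660 and 658 with FX1, and 103, 102 and 99.4 in GFP-low DMSO and 753, 755 and 753 with FX1, so its groups were far apart. DNAJC5, the cysteine string protein, rose by 0.73 and 0.65, and DNAJC11, a mitochondrial J protein, by 0.48 and 0.54. DNAJB2, a J protein known from neurons, rose by 0.42 in GFP-high and 0.95 in GFP-low cells (difference 0.52 ± 0.053). FKBP5, an HSP90 immunophilin, rose by 0.16 and 0.49 (difference 0.33 ± 0.033). YME1L1, a protease of the mitochondrial inner membrane (difference -0.27 ± 0.025), and DNAJB14 (-0.38 ± 0.043) had lower changes in GFP-low cells, with FX1 values of 0.09 and -0.17 for YME1L1 and 0.00 and -0.38 for DNAJB14. HSPA6, a strictly inducible HSP70 named here after its values were seen, was at most 0.255 CPM in any DMSO library and between 0.740 and 1.60 CPM in the FX1 libraries, with rises of 3.47 ± 0.44 and 2.61 ± 0.43. Of the 4 tested HSP70 and HSP110 relatives in this list, HSPA6 was the 1 that rose, and 3 fell in both gates. Those 3, also named after their values were seen, were HSPA2 (-0.67 in both), HSPA12A (-0.50 and -0.24) and HSPA13 (-0.44 and -0.68).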

How the data were processed

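RNA was extracted with the RNeasy Plus Micro kit and libraries were made with KAPA RNA HyperPrep with RiboErase, per the labels' protocols. Reads were handled with FastQC, STAR, featureCounts of Subread and R 4.2.1 on hg38, per the submitters' processing notes. Other versions, the annotation release and the strand setting are not given in the sources used here. Per the file headers, the authors deposited whole-number counts for each gene without normalization. A broken record of 3 lines was left out, and 60506 of 60707 gene IDs matched a symbol.

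Tests used edgeR 4.0.16 under R 4.3.3, with filterByExpr (17859 genes kept), TMM, a robust quasi-likelihood fit of 4 group means over the 12 libraries (8 residual degrees of freedom), and Benjamini-Hochberg adjustment over all genes tested at 0.05. The SE is the log2 change divided by the square root of F. Levels are TMM-scaled CPM. Between pairs of libraries of a group the counts varied more than random sampling of reads, so none was counted as a repeat of another. The SE covers the spread between libraries of a group, which may be technical. Shared 50-base stretches, GC content and length came from GENCODE v29 transcripts, and promoters from RefSeq (GRCh38.p14).

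The members, lists, tests and alternatives were chosen with earlier results of these data known. All 40 members may be named. Values per library are given for the member with the largest change in each role, for HSF1, HSPA1A, HSPA1B, HSPA8, HSPH1, DNAJB1, BAG3, HSP90AA1, HSP90AB1, HSPA9, HSPD1, HSPE1 and TRAP1, and for the TRiC subunits with the highest and lowest FX1 change. BAG2 and SUGT1 were added after their values were seen. Of the other pathway genes, up to 4 called genes with the lowest p in each FX1 contrast and in the difference, and CCT6A, are named. Alternatives were DESeq2's size factors, DESeq2 1.42.0, other low-count filters (none, or 50 counts in 3 libraries), a fit of the compared groups alone, a replicate block, scaling that leaves out mitochondrial genes and any gene above 1% of the counts, a smooth trend per library on GC content and length entered as offsets, and each library left out. Counts were also simulated for 13382 genes, with levels and spreads taken from these data. Only 67, 71 and 62 genes were changed, by 1.2-fold, 1.5-fold and 2-fold, up or down, in the GFP-low FX1 group alone. In the real data 68.0% of genes were called with FX1 in GFP-low cells, so the rates do not cover changes in most genes. The same code was tested on these simulated counts. It recovered 67.2%, 88.7% and 95.2% of genes changed 1.2-fold, 1.5-fold and 2-fold for FX1 in GFP-low cells, 67.2%, 90.1% and 98.4% for GFP-low under FX1, and 56.7%, 73.2% and 85.5% for the difference, with 12, 9 and 7 unchanged genes called.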

Additional observations from a re-analysis of the deposited data

Results flagged for a closer look

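The change with FX1 differed between gates, by edgeR's quasi-likelihood test of the difference itself, for 24 members, given here as the log2 change in GFP-low minus that in GFP-high cells. Among inducible genes the values were -0.30 for HSPA1B, -0.23 for HSPH1 and -0.31 for DNAJB4. They were -0.092 for HSPA8 and -0.26 for HSPA14, -0.215 for DNAJA1 and -0.17 for DNAJA2, and -0.45 for BAG2. The HSP90 genes gave 0.062 for HSP90AA1 and 0.11 for HSP90AB1. Of the co-chaperones, CHORDC1 stood at -0.29, PTGES3 at -0.27, SUGT1 at -0.26 and ST13 at -0.16, and CDC37 at 0.21, AHSA1 at 0.19 and STIP1 at 0.14. The mitochondrial genes gave -0.28 for HSPE1, 0.20 for TRAP1 and 0.12 for HSPA9. TRiC subunits gave -0.12 for CCT2, -0.091 for CCT4, -0.070 for CCT8 and 0.11 for CCT5.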

How the results depend on the processing

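Of 2940 values for single members under the alternatives, 2807 kept their direction and side of the threshold, 45 lost a call, 67 gained one and 21 turned. DESeq2, its size factors in edgeR and the 2 low-count filters turned no member. The replicate number as a block changed no member's call, and with it 6031 genes rose and 6153 fell with FX1 in GFP-high. The 18 pairs of same-numbered libraries correlated between -0.0225 and 0.0236, none over 0.1, so no deviation shared by number was seen. This cannot tell whether same-numbered libraries came from 1 culture or sort, which the labels do not give. For the GFP-high FX1 change the members' median was 0.23 with at least 50 counts in 3 libraries, beside -0.007 over all genes. For GFP-low it was 0.12 in the scaling without abundant and mitochondrial genes and 0.18 with the GC and length trend removed, and 7 members fell in each gate with that trend removed. For GFP-low against GFP-high the trend's removal left 1 higher member under each treatment and medians of -0.18 under DMSO and -0.24 under FX1. Of all 17557 genes, 3505 were then higher under DMSO and 4260 under FX1, with medians of 0.025 and 0.045. Under FX1, at least 50 counts gave 5 higher members and a median of -0.29, the scaling without abundant genes -0.37 and only the groups compared -0.37. With at least 50 counts, 5190 of all 12809 genes were higher. All-gene medians in these 3 settings were 0.057, 0.036 and 0.035, beside 0.079 in the main fit, so the members' shifts were partly shared by all genes. The median difference of the FX1 change was -0.047 with at least 50 counts and -0.11 without abundant genes, beside 0.033 and -0.019 over all genes. Leaving out 1 library at a time, the members' median difference lay between -0.12 and -0.064 (the 3 GFP-high DMSO libraries gave the low end), with 6 to 8 members higher and 16 to 22 lower. Without those 3 libraries in turn, 1759 to 1863 of all genes were called higher and 3484 to 3546 lower, with medians of -0.028 to -0.025. The median under FX1 lay between -0.34 and -0.31, and the higher members under DMSO numbered 1 or 2.

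Signs turned only with the GC and length trend removed, for 21 values. With FX1 in GFP-high these were BAG5 0.000316, PTGES3 0.0081, ST13 0.034 and TCP1 0.057. In GFP-low they were HSPA4 0.0035, HSPA14 0.070, DNAJA2 0.17, BAG2 0.24, BAG5 0.045, TRAP1 -0.13, TCP1 0.11 and CCT5 0.083. For GFP-low under DMSO they were HSF1 -0.068, BAG2 0.096 and CCT4 0.013, and under FX1 HSF1 -0.18, CDC37 -0.25, TRAP1 -0.15 and DNAJA3 -0.10. For the difference they were HSF1 -0.11 and DNAJB4 0.018. That setting also used fewer genes (17557), and the cause of the turned signs was not tested. Depth limits BAG3, at most 3.77 CPM in any library, and HSPB1, with 6 counts in all.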
